A study of Mus musculus with 4 samples.

Results

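The genes described here encode collagens, laminins and the larger proteins and proteoglycans of the extracellular matrix, measured in the mouse dentate gyrus (DG) after electroconvulsive stimulation (ECS). A probe set belonged to the group if its annotation gave a single symbol that was a numbered collagen chain, a laminin chain, or 1 of the named genes Ogn, Dcn, Lum, Bgn, Fmod, Prelp, Omd, Fn1, Sparc, Bcan, Ncan, Vcan, Acan and Tnc. This took 102 of the 22626 probe sets on the array, which stand for 60 of 12393 genes. They comprised 9 fibrillar collagen genes, 19 basement membrane genes, 18 other collagen genes, 7 small leucine-rich proteoglycans, 4 lecticans and 3 matrix glycoproteins.

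RNA was taken from the DG of C57Bl/6 mice, which by the study's methods were males bought at 8 weeks of age. There were 4 groups: sham treatment and a single ECS, each dissected at 1 h, a course of 10 ECS dissected 48 h later, and a course of 11 ECS dissected 1 h later. Each group was 1 array, hybridised with the pooled RNA of 3 mice. All mice were anaesthetised with isoflurane for a session, the shock was bilateral, 25 mA for 1 s through clips on the ears, and repeated ECS was given in 4 sessions a week over at most 3 weeks. By the study's description the mice of the 48 h group also had a sham session shortly before dissection. Groups follow the sample titles, although in 3 of the 4 samples the free-text description field gives a different treatment. The design gives 4 comparisons: a single ECS against sham, 11 ECS against 10 ECS, 10 ECS against sham, and 11 ECS against a single ECS. The last 2 set mice with 10 earlier ECS against mice with none, on separate pairs of arrays, and are called the repeated comparisons below. By the titles the sham and single ECS mice had 1 session. Earlier shocks therefore cannot be told apart from repeated anaesthesia, handling and elapsed time, and "earlier ECS" below stands for all of these.

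Fibrillar collagens assemble into the banded fibres of connective tissue, which in the brain lie mainly in the meninges and around larger vessels. Type IV collagens and laminins form the sheet-like basement membrane that surrounds brain capillaries. Small leucine-rich proteoglycans bind collagen and regulate how its fibres form, whereas lecticans bind hyaluronan in the matrix between neural cells and in perineuronal nets.

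The design had 1 array a group and hence no replicate spread. Every difference below is therefore a description with no test, and 2-fold is a size and not a call. Where both arrays with earlier ECS stand on 1 side of both arrays without it, this is an order of 4 single values. The share of all genes so ordered was not counted. Values are MAS5 signals, in the units of the deposited table. A floor of 12 units, the 25th percentile of the signals on all arrays, replaced every lower value, and a ratio with 1 array at the floor is written as at least N-fold. The median log2 ratio of all genes was -0.24 for a single ECS against sham, -0.11 for 11 ECS against 10 ECS, -0.14 for 10 ECS against sham and 0.00 for 11 ECS against a single ECS. Class medians are therefore given after subtracting that median. Where a gene had several probe sets, the one with the highest mean signal stands for it. Between probe sets of the same gene the log2 ratios had a pooled SD of 0.29 and 0.28 over all genes in the 2 repeated comparisons, and of 0.48 and 0.38 over the matrix genes. Of the 60 genes, 45 were above the floor on all 4 arrays and 5 were at it on all 4, namely Col2a1, Col4a4, Lama4, Col10a1 and Col17a1. Many signals were low: 30 of the 60 genes reached 48 units on any array.

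The mice with earlier ECS had more signal for Col3a1, Col1a2 and Col6a1 and less for Ogn, in both repeated comparisons and by at least 2-fold. In 10 ECS against sham, 4 of 54 measured matrix genes (7.41%) were at least 2-fold higher, Col3a1, Col6a1, Col1a2 and Col1a1, beside 0.716% of all genes. Col1a1 was at the floor in sham, so it could enter this comparison only as higher. Ogn was the only matrix gene at least 2-fold lower there, beside 1.22% of all genes. In 11 ECS against a single ECS, 6 of 50 (12%) were at least 2-fold higher, Col3a1, Col6a1, Col9a3, Col1a2, Fmod and Col5a2, beside 0.832% of all genes. Ogn was again the only one lower by that size, beside 0.782% of all genes. Of 49 matrix genes measured in both, 3 were at least 2-fold higher in both, beside 0.237% of all genes, and 1 was lower in both, beside 0.144%.

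Ogn encodes osteoglycin, a small leucine-rich proteoglycan also called mimecan. The study itself listed Ogn among the genes most lowered by repeated ECS, in a separate set of samples. Its signal was 240.7 in sham, 175.8 after a single ECS, 33.4 after 10 ECS and 21.5 after 11 ECS. Both arrays with earlier ECS were thus low and both without it were high. The level was 7.21-fold lower in 10 ECS than in sham and 8.18-fold lower in 11 ECS than after a single ECS. Among genes above the floor on both arrays this was the lowest ratio in each comparison, of 9431 and 9182 genes. Its other probe set read 100.5, 101.7, 16.8 and 5.6 in the same order of groups, which is 5.98-fold lower in 10 ECS than in sham and at least 8.47-fold lower in 11 ECS than after a single ECS. At 1 h after a shock Ogn was 1.37-fold lower than sham in naive mice and 1.55-fold lower than 10 ECS in mice with earlier ECS.

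Col3a1 encodes the single chain of type III collagen, a fibrillar collagen of vessel walls and soft connective tissue. It read 17.9 in sham, 21.3 after a single ECS, 105.9 after 10 ECS and 88.1 after 11 ECS, so both naive arrays lay near the floor. The signal was 5.92-fold higher in 10 ECS than in sham and 4.14-fold higher in 11 ECS than after a single ECS. Ranked on ratios with neither array at the floor, it had the highest ratio of 9431 in the first comparison and ranked 3rd of 9182 in the second. Its other probe set stayed at the floor on all 4 arrays, with at most 4.6 units, and gives no second reading.

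Type I collagen is built from the chains of Col1a1 and Col1a2. Col1a2 read 59.0 in sham, 60.6 after a single ECS, 150.8 after 10 ECS and 141.2 after 11 ECS. That is 2.56-fold higher in 10 ECS than in sham and 2.33-fold higher in 11 ECS than after a single ECS, and again both arrays with earlier ECS stood above both naive ones. A dimmer probe set of Col1a2 read 15.7, 7.5, 24.3 and 17.8, which is 1.55-fold and at least 1.48-fold higher. Col1a1, chosen here after its values were seen, was at the floor in sham and after a single ECS (4.1 and 10.2) and read 26.9 after 10 ECS and 20.1 after 11 ECS. These are at least 2.24-fold and at least 1.68-fold higher, at low signal, and the other Col1a1 probe set did not show it (15.7, 0.7, 15.7 and 1.8).

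Col6a1 encodes a chain of type VI collagen, which forms beaded microfilaments around cells rather than banded fibres. Its 1 probe set read 38.8 in sham, 53.2 after a single ECS, 163.7 after 10 ECS and 169.8 after 11 ECS. The level was 4.22-fold higher in 10 ECS than in sham and 3.19-fold higher in 11 ECS than after a single ECS. It ranked 3rd of 9431 and 6th of 9182 genes. The partner chains did not show that size. Col6a2 read 29.0, 34.7, 45.2 and 38.4, 1.56-fold higher in 10 ECS than in sham, and its second probe set ran the other way there (33.6 against 25.0). Col6a3 read 24.8, 36.5, 37.2 and 26.6, so its highest values were on the single ECS and 10 ECS arrays.

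The promoters of the 4 genes that differed by at least 2-fold in both repeated comparisons are shown because these genes carry the result. Each runs from 250 bases before to 50 bases after the RefSeq start site (build GRCm38.p6), 5′ to 3′ on the strand of the gene. They lie at chr13:49607765-49608064 on the plus strand for Ogn, chr1:45311288-45311587 on the plus strand for Col3a1, chr6:4505368-4505667 on the plus strand for Col1a2, and chr10:76725995-76726294 on the minus strand for Col6a1. Capitals mark matches, on either strand, to 5 sets of letters. These are TATAAA, called here the TATA letters, then CCAAT, known by its own letters, then GGGCGG, known as the GC box. The other two are TGACGTCA, which binds CREB and is called the cAMP response element, and TGANTCA, the site of AP-1.
Ogn: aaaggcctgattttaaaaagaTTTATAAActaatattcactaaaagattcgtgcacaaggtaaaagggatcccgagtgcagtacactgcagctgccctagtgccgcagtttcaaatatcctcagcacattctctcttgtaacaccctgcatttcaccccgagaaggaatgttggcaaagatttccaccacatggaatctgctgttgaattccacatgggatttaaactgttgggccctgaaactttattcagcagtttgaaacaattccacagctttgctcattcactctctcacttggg
Col3a1: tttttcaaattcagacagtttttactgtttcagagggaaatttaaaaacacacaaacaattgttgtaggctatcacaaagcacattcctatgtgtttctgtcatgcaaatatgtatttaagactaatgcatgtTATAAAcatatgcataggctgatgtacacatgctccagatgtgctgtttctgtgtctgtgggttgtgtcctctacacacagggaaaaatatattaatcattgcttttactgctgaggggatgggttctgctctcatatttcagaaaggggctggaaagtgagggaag
Col1a2: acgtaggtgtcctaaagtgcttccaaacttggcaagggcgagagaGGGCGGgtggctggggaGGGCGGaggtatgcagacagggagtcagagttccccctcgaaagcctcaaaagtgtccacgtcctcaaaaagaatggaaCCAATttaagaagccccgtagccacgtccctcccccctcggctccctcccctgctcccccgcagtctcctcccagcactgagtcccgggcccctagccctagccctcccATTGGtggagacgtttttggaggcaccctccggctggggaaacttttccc
Col6a1: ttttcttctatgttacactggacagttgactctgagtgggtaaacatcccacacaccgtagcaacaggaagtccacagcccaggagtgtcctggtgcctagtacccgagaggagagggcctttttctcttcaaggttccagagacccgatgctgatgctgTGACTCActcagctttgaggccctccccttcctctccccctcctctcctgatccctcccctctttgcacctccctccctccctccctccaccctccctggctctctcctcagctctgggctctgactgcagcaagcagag

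In Ogn the TATA letters matched 229 and 227 bases before the start, on overlapping positions of the 2 strands, and in Col3a1 117 bases before it. Col1a2 held GC boxes 205 and 188 bases before the start and a CCAAT box 109 bases before it, with another at the start itself. Col6a1 held 1 AP-1 match, 90 bases before the start. GC content was 42.3% for Ogn, 37.7% for Col3a1, 61% for Col1a2 and 57.3% for Col6a1. The 4 windows shared no motif across all of them. There were 48 promoters listed for 43 matrix genes. Of these promoters, 27 held the GC box (56.2%, beside 35.7% of all 32851 promoters), 18 the CCAAT box (37.5%, beside 37.4%), 9 the TATA letters (18.8%, beside 13.6%), 1 the AP-1 site (2.08%, beside 7.81%) and 0 the cAMP response element (beside 1.79%). A match describes the letters and is not a binding site.

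**Figure D1:**
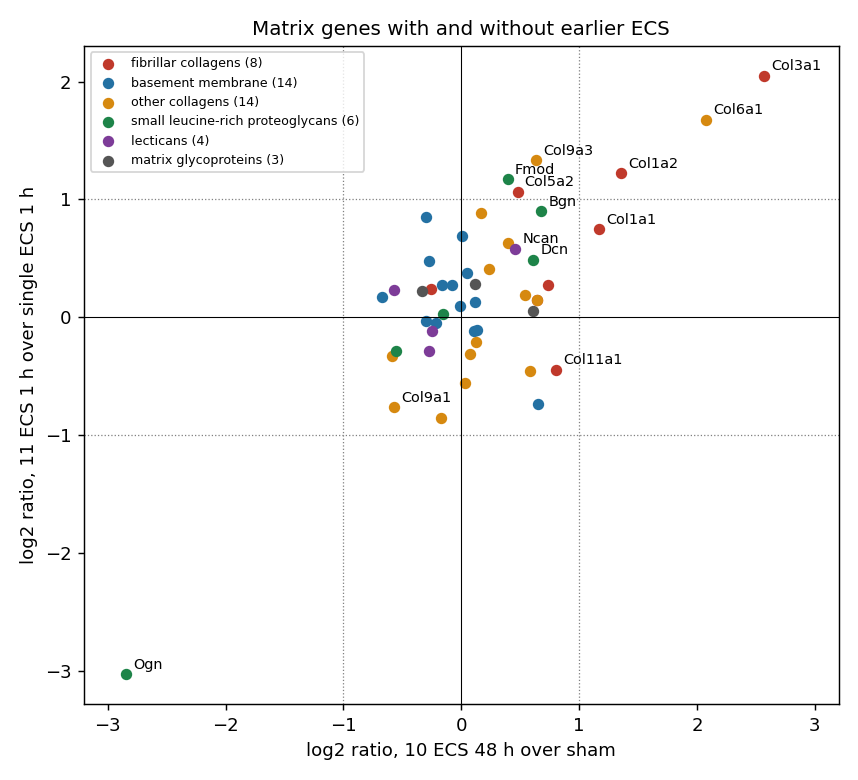
Each point is 1 of the 49 matrix genes measured in both repeated comparisons, with the log2 ratio of MAS5 signals of 10 ECS over sham on the horizontal axis and of 11 ECS over a single ECS on the vertical axis, coloured by class; dotted lines mark 2-fold, and arrays at the floor are taken at the floor. Ogn lies alone at the lower left, at -2.85 and -3.03, and Col3a1, Col6a1 and Col1a2 lie at the upper right.

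The repeated comparisons share no array. Across the 45 matrix genes above the floor on all 4 arrays, their log2 ratios had a Pearson r of 0.78 and a Spearman rho of 0.46, and without Ogn 0.65 and 0.42. Across all 8999 such genes the values were 0.33 and 0.28. These are across genes, which are not independent replicates. By sign, 22 of 49 matrix genes (44.9%) were above 0 in both and 9 (18.4%) were below 0 in both, beside 17.9% and 39.8% of all genes. The other 18 (36.7%, beside 42.2%) had opposite signs.

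The fibrillar collagens as a class stood higher in mice with earlier ECS. Of 8 measured genes 6 (75%) were above 0 in both repeated comparisons, beside 17.9% of all genes, and 0 were below 0 in both, beside 39.8%. Among the 6 is Col1a1, which was at the floor on both naive arrays, so its ratios could only be above 0. The class median was 0.91 above that of all genes in 10 ECS against sham and 0.51 above it in 11 ECS against a single ECS, both on the log2 scale. The rest of the class comprises the type V and type XI chains, which nucleate fibrils and limit their width. Col5a2 read 43.7 in sham, 26.9 after a single ECS, 60.8 after 10 ECS and 56.3 after 11 ECS, 1.39-fold higher in 10 ECS than in sham and 2.09-fold higher in 11 ECS than after a single ECS. The low array was that of the single ECS, and a second probe set (27.9, 25.9, 33.3 and 39.4) was 1.19-fold and 1.52-fold higher.

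Other members of the fibrillar class are given after their values were seen. Col5a3 read 17.6, 20.1, 29.3 and 24.3 in sham, single ECS, 10 ECS and 11 ECS. Col11a2 read 48.8, 50.6, 76.3 and 55.9, with 10 ECS the highest array. For both genes the 2 naive values were the lowest. Col5a1 did not follow, at 54.7, 35.6, 45.8 and 42.1, with sham the highest, and its second probe set had 11 ECS the highest (27.3, 16.9, 24.2 and 28.2). Col11a1, named by its split probe sets, read 30.9, 37.7, 54.0 and 27.7, and in 11 ECS against a single ECS its 2 probe sets gave log2 ratios of -0.44 and 0.65.

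**Figure D2:**
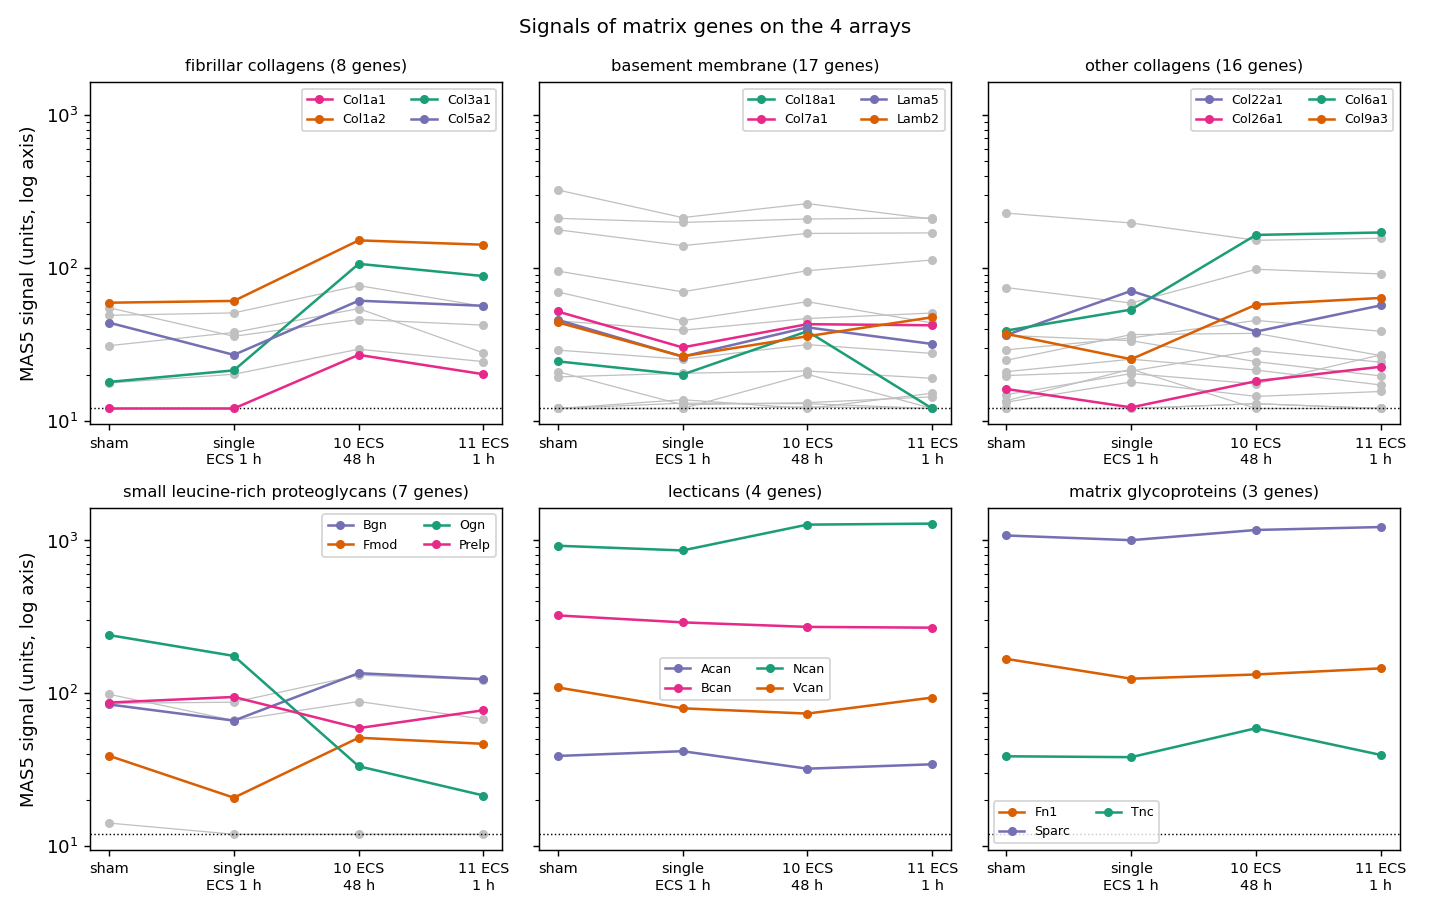
MAS5 signal on a log axis of matrix genes on the sham, single ECS, 10 ECS and 11 ECS arrays, by class, with a dotted line at the floor of 12. Coloured and labelled are the genes of each class with the widest range over the arrays, and the remaining genes are grey. Genes at the floor on all arrays are left out. Lines join the values of a gene and do not stand for a time course. Ogn is low and Col3a1, Col1a2 and Col6a1 are high on the 10 ECS and 11 ECS arrays against the other two.

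The small leucine-rich proteoglycans did not move as 1 group, and their class median differed from that of all genes by -0.02 and 0.26 in the repeated comparisons. Bgn encodes biglycan, a close relative of decorin. Its signal was 84.7 in sham, 66.4 after a single ECS, 135.6 after 10 ECS and 123.9 after 11 ECS, 1.6-fold and 1.87-fold higher in the repeated comparisons. Its 2 dimmer probe sets gave the same order of naive and repeated arrays. They read 29.2, 30.9, 74.5 and 69.5, which is 2.55-fold and 2.25-fold higher, and 36.4, 38.3, 66.4 and 80.2, which is 1.82-fold and 2.09-fold higher. In all 3 probe sets both arrays with earlier ECS stood above both naive ones.

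Dcn encodes decorin, which binds type I collagen fibrils. It read 86.2 in sham, 87.6 after a single ECS, 131.6 after 10 ECS and 122.7 after 11 ECS, 1.53-fold and 1.4-fold higher. Fmod (fibromodulin, also a collagen binder) read 39.1, 20.8, 51.3 and 46.8, 1.31-fold higher in 10 ECS than in sham and 2.25-fold higher in 11 ECS than after a single ECS. Its 6 probe sets split in direction in 10 ECS against sham, from -0.81 to 0.77 on the log2 scale, and ran from 0.38 to 1.46 in the other comparison among those above the floor on both arrays. Lum (lumican), the neighbour of Dcn in the gene order of the assembly, read 98.7, 66.6, 88.5 and 67.9, which is lower on both arrays taken 1 h after a shock. Prelp, which anchors basement membranes to collagen, read 87.1, 94.8, 59.3 and 77.6, lower on both arrays with earlier ECS by 1.47-fold and 1.22-fold. Omd (osteomodulin), which lies next to Ogn, was above the floor in sham alone, at 14.2. Ogn was thus apart from Bgn and Dcn in direction, and no other member of this class was 2-fold lower.

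The basement membrane genes differed in both directions with earlier ECS. Of 14 genes measured in both repeated comparisons, 3 (21.4%) were above 0 in both, 2 (14.3%) were below 0 in both and 9 (64.3%) had opposite signs, beside 17.9%, 39.8% and 42.2% of all genes. In these comparisons 0 of 16 and 0 of 15 genes reached 2-fold in either direction. The class median was 0.13 and 0.14 above that of all genes. Col4a1, a chain of the main type IV collagen network, read 210.2, 197.6, 208.1 and 211.4 in sham, single ECS, 10 ECS and 11 ECS, and its dimmer probe set read 28.5, 26.7, 29.9 and 44.5, with 11 ECS the highest. Its partner chain Col4a2, whose values were seen first, read 176.9, 139.3, 167.4 and 168.8. The summed signal of the 6 type IV genes was 450.6, 407.3, 458.7 and 457.9.

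Of 8 laminin genes measured in a single ECS against sham, 6 (75%) were below 0, which is near the 80.4% of all genes, and their median was 0.29 below that of all genes. Lamb1, the beta chain of several laminins, read 322.1 in sham, 212.5 after a single ECS, 262.3 after 10 ECS and 207.8 after 11 ECS, 1.52-fold lower after the single ECS and 1.26-fold lower in 11 ECS than in 10 ECS. Its second probe set, at 89.8, 59.3, 81.7 and 46.4, was 1.51-fold and 1.76-fold lower. Lamc1, its usual gamma partner and chosen after its values were seen, read 69.4, 45.0, 59.9 and 43.5. By these probe sets both genes were lowest on the arrays taken 1 h after a shock. The second Lamc1 probe set went against that, at 3.5, 31.9, 29.6 and 23.2, with sham at the floor and the single ECS at least 2.66-fold higher. Lama5, the alpha chain of adult vessel laminin, read 45.6, 26.2, 40.7 and 31.7 and was 1.74-fold lower after the single ECS, with its second probe set at least 3.03-fold lower (36.4 and 10.7).

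Lamb2 read 43.9, 26.3, 35.6 and 47.4, so in 11 ECS against 10 ECS it was 1.33-fold higher and did not repeat the lower value of the single ECS. Lama2, given after its values were seen, read 95.0, 69.5, 95.5 and 112.3, also low on the single ECS array alone. Col7a1, the chain of anchoring fibrils, read 51.7, 30.1, 42.7 and 42.0, again with its lowest value after the single ECS. In 11 ECS against 10 ECS, 7 of 9 laminin genes (77.8%) were below 0, beside 67.4% of all genes, with a median 0.05 below that of all genes. Col18a1, the source of the fragment endostatin, was the only matrix gene at least 2-fold lower in that comparison. It read 24.4, 20.0, 38.4 and 9.5, at least 3.2-fold lower, but its second probe set (17.0, 21.7, 25.0 and 20.2) was 1.24-fold lower.

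**Figure D3:**
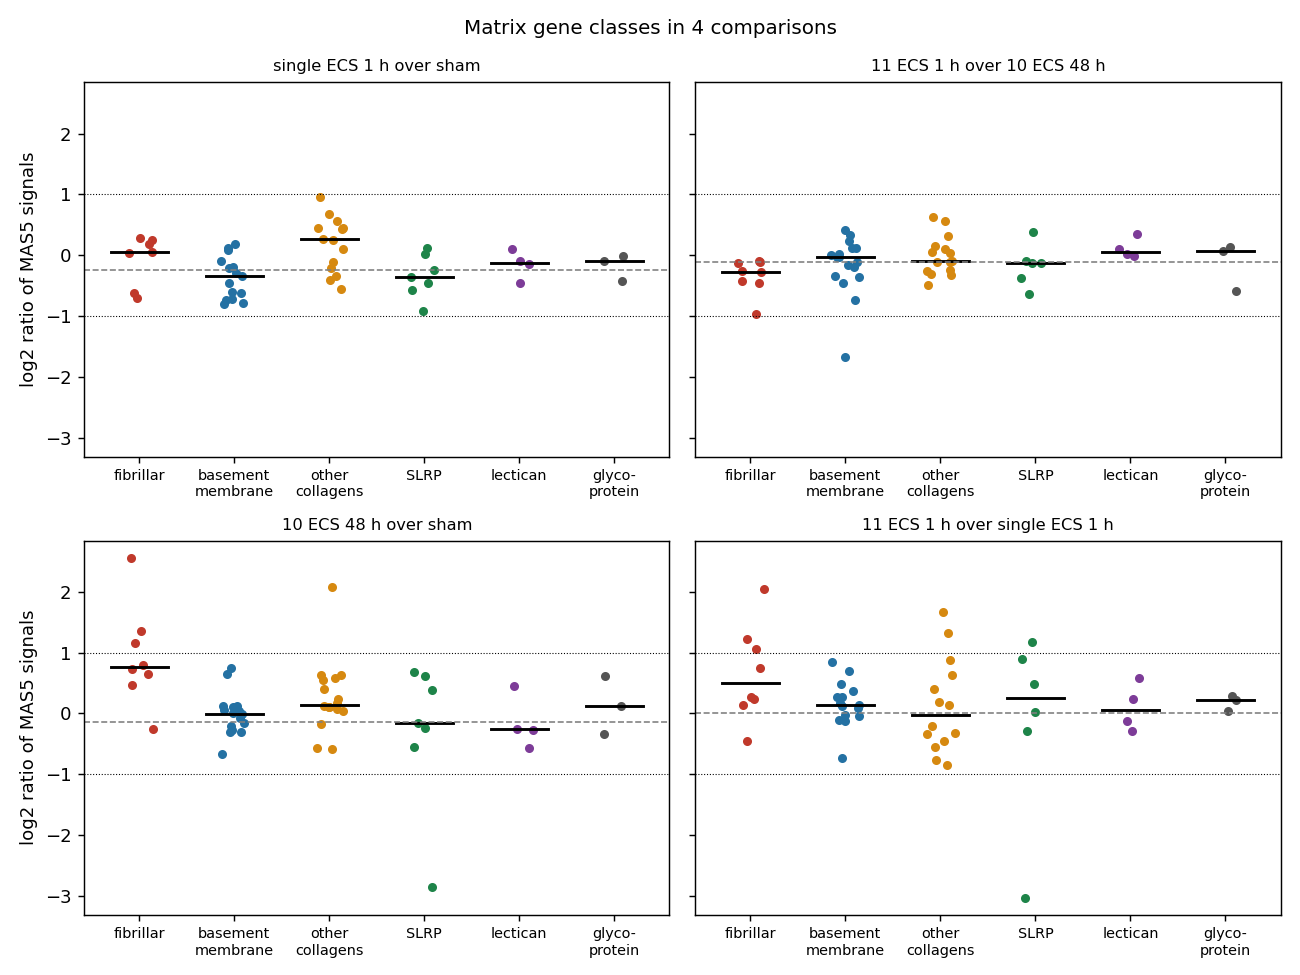
Log2 ratio of each measured matrix gene in the 4 comparisons, by class, 1 point per gene, with the class median as a bar, the median of all genes as a dashed line and 2-fold as dotted lines (SLRP stands for small leucine-rich proteoglycans). The fibrillar collagens lie mostly above 0 in the repeated comparisons, and the basement membrane genes lie on both sides of it.

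Few genes differed by 2-fold 1 h after the first shock or the 11th, among the matrix genes and among all genes alike. In a single ECS against sham 0 of 50 were at least 2-fold higher and 0 were lower, beside 1.2% and 2.89% of all genes. In 11 ECS against 10 ECS 0 of 53 were higher and 1 was lower, beside 1.06% and 1.21%. With so few genes, these counts do not set the matrix genes apart from all genes. They rest on the brightest probe set of each gene. Second probe sets of Col22a1, Lama5 and Lamc1 passed 2-fold in a single ECS against sham. Across the 45 matrix genes above the floor on all 4 arrays, the log2 ratios of these 2 comparisons, which share no array, had a Pearson r of 0.04 and a Spearman rho of -0.02, beside 0.56 and 0.42 across all genes.

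Col22a1, a collagen of tissue junctions, came closest to 2-fold after the first shock. It read 36.3 in sham, 70.5 after a single ECS, 38.2 after 10 ECS and 56.7 after 11 ECS, 1.94-fold higher after the single ECS and 1.48-fold higher in 11 ECS than in 10 ECS. Both arrays taken 1 h after a shock were above the other two. Its second probe set read 12.7, 48.2, 36.4 and 56.2, which is 3.8-fold and 1.54-fold higher, and 2.87-fold higher in 10 ECS than in sham, where the first probe set was 1.05-fold higher. Scaling the arrays to the same median moved Col22a1 past 2-fold after the single ECS.

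Among the other collagens, Col19a1, a fibril-associated chain made by subsets of neurons, read 227.3, 195.9, 151.0 and 155.6 in sham, single ECS, 10 ECS and 11 ECS. It was lower on both arrays with earlier ECS, by 1.51-fold and 1.26-fold. Its neighbour Col9a1, a chain of the fibril-associated type IX collagen, read 36.1, 33.3, 24.3 and 19.6, lower by 1.49-fold and 1.7-fold, but its second probe set was 2.02-fold higher in 10 ECS than in sham (14.2 and 28.7). Col9a3, another type IX chain, read 36.9, 25.2, 57.3 and 63.4, 1.55-fold and 2.52-fold higher. A second probe set of Col9a3 read 41.5, 31.8, 38.5 and 35.8, so its probe sets split. Col16a1, given after its values were seen, read 74.1, 58.7, 97.6 and 91.0, higher on both arrays with earlier ECS. Col25a1, a membrane collagen of neurons, read 14.8, 20.3, 17.4 and 26.9, and Col12a1 was above the floor in sham (13.5) and after the single ECS (21.7) only.

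Of the 4 lecticans 3 reached 48 units, all but Acan, and 0 of the 4 reached 2-fold in any of the 4 comparisons. Ncan encodes neurocan, a chondroitin sulphate proteoglycan made by neurons and astrocytes. It read 923.5 in sham, 860.4 after a single ECS, 1269.1 after 10 ECS and 1288.6 after 11 ECS, 1.37-fold and 1.5-fold higher with earlier ECS. A dimmer probe set was 1.1-fold and 1.49-fold higher (66.8, 52.9, 73.8 and 78.6). Bcan (brevican, of perineuronal nets) read 323.5, 291.4, 272.2 and 269.0, and Acan (aggrecan, the core proteoglycan of those nets) read 39.0, 41.9, 32.2 and 34.4, so both were lowest on the arrays with earlier ECS. Vcan (versican) read 109.4, 79.9, 73.8 and 93.9, with sham the highest. Its 2 dimmer probe sets read 42.3, 35.3, 30.9 and 31.3, and 37.1, 31.6, 31.7 and 25.7, also with sham the highest. In 11 ECS against a single ECS these were 1.13-fold and 1.23-fold lower, where the brightest was 1.18-fold higher.

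Of the matrix glycoproteins, Sparc, which binds collagen and is made by astrocytes and endothelial cells, read 1077.7, 1004.2, 1171.1 and 1223.9, with ratios within 1.22-fold in each comparison. Fn1 (fibronectin) read 168.1, 124.8, 133.0 and 145.8, with sham the highest. Tnc (tenascin C, a matrix protein of injured and developing tissue) read 38.8, 38.3, 59.2 and 39.6 with 10 ECS the high array, 1.53-fold above sham.

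Genes that make, cut or bind the matrix were read from lists of their own. Of 22 genes of collagen biosynthesis, Pcolce, which enhances cleavage of the procollagen C-propeptide, read 52.5 in sham, 54.5 after a single ECS, 118.8 after 10 ECS and 105.4 after 11 ECS. It was 2.26-fold and 1.93-fold higher with earlier ECS, the order seen for the type I and type III chains. P4ha1, a subunit of prolyl 4-hydroxylase, followed the shock instead, at 201.4, 414.9, 189.6 and 354.9, which is 2.06-fold higher after the single ECS and 1.87-fold higher in 11 ECS than in 10 ECS. Serpinh1, the collagen chaperone, read 95.9, 99.9, 128.5 and 94.7. In the repeated comparisons 1 of 20 and 0 of 20 measured genes of this list were at least 2-fold higher, and 0 were lower in either.

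Of 27 proteases and inhibitors, Timp1, an inhibitor of matrix metalloproteinases, was the 1 gene at least 2-fold higher in both repeated comparisons. It was at the floor on the naive arrays (2.8 and 8.0) and read 28.2 and 28.4 after 10 and 11 ECS. These are at least 2.35-fold and at least 2.37-fold higher, and Timp1 was picked after its values were seen. Of 20 genes of this list measured in both repeated comparisons, 6 (30%) were above 0 in both, beside 17.9% of all genes. Another 7 (35%) were below 0 in both, beside 39.8%. Of 20 matrix receptors, Cd44, a receptor for hyaluronan, read 43.2, 34.4, 39.9 and 74.2, with 11 ECS the high array, 2.16-fold above the single ECS. Of 12 linkers of the basement membrane and the perineuronal net, Nid1 (nidogen, which joins laminin to type IV collagen) read 44.0, 43.6, 66.9 and 71.5, 1.52-fold and 1.64-fold higher. Tnxb went the other way, at 72.6, 56.1, 59.6 and 37.5, 1.22-fold and 1.50-fold lower. Of 11 linkers measured in both repeated comparisons, 4 (36.4%) were above 0 in both and 6 (54.5%) below 0 in both. Hapln1 (which links lecticans to hyaluronan), named after its values were seen, read 67.7, 61.3, 68.8 and 69.6. The medians of these 4 lists lay between -0.09 and 0.09 of that of all genes in the repeated comparisons.

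In bulk tissue, fewer cells of a type and less RNA per cell cannot be told apart, so marker lists are given beside these results. The list for granule cells, the main neurons of the DG, summed to 5535.6 in sham, 4216.2 after a single ECS, 2880.2 after 10 ECS and 2080.3 after 11 ECS, with 5 of 5 genes below 0 in both repeated comparisons, beside 39.8% of all genes. Its median was 0.64 and 0.95 below that of all genes there, the direction in which Ogn differed. The study itself reported lower Calb1, Tdo2, Dsp and Il1r1 after ECS, so the fall of these markers does not measure the number of granule cells. It also reported that staining for the neuronal marker NeuN was unchanged after repeated ECS. Prox1, the remaining gene of the list, read 68.6, 69.8, 57.1 and 62.7, which is 1.20-fold and 1.11-fold lower in the repeated comparisons. The list for fibroblasts of the meninges and vessels, the cells known for type I and type III collagen, summed to 1102.9, 911.3, 998.0 and 885.5. Of its 14 genes 12 were above the floor on at least 1 array, and Slc47a1 and Crabp2 were at the floor on all 4. In 10 ECS against sham 8 of the 12 (66.7%) were above 0, beside 28.5% of all genes, and the median was 0.26 above that of all genes. In 11 ECS against a single ECS 5 of the 12 (41.7%) were above 0, beside 50.1%, and the median was 0.22 below that of all genes. In each repeated comparison 0 of the 12 were 2-fold apart. The sum rests largely on Pdgfra, which oligodendrocyte precursors also express (353.5, 311.4, 258.8 and 248.0), and on Igf2 (142.7, 75.4, 72.4 and 87.4), both lower in 10 ECS than in sham. The summed fibrillar signal was 288.7, 265.1, 554.0 and 459.9. The list for endothelial cells summed to 806.3, 785.6, 920.1 and 805.3, with Tie1 at the floor on all 4 arrays. Its median was 0.34 and 0.24 above that of all genes in the repeated comparisons, the direction of the fibrillar collagens. In each, 5 of 7 genes were above 0, beside 28.5% and 50.1% of all genes, and 4 of 7 were above 0 in both. Kdr (42.6, 27.7, 73.1 and 54.8) was 1.72-fold and 1.98-fold higher, while Flt1 (131.2, 111.0, 107.1 and 84.7) was 1.23-fold and 1.31-fold lower. The list for mural cells summed to 1432.1, 1256.5, 1297.6 and 1382.8, with Abcc9 at the floor on all 4 arrays. Its median was 0.02 below that of all genes in 11 ECS against a single ECS. The choroid plexus list summed to 213.9, 305.5, 213.5 and 166.1, with Kcne2, Otx2, Slc4a5 and Aqp1 at the floor on all 4 arrays. Ttr was high after the single ECS (215.9, beside 67.2 in sham). The other 3 of the 4 measured genes were below 0 in that comparison, beside 80.4% of all genes. Among them Kl read 74.3, 38.4, 26.6 and 25.2, 1.93-fold lower after the single ECS and 2.79-fold lower in 10 ECS than in sham. The astrocyte list summed to 6451.8, 5825.2, 6120.2 and 6057.3. Of its 6 genes 3 were above 0 and 3 below 0 in both repeated comparisons, beside 17.9% and 39.8% of all genes. Gfap (49.3, 45.6, 114.1 and 135.0) was among the higher ones and Slc1a3 (1841.2, 1603.4, 1354.5 and 1368.2) among the lower. The list for oligodendrocyte precursors summed to 1333.8, 1218.0, 1067.6 and 1015.7 and that for pyramidal cells, which a dissection of the DG could carry along, to 871.0, 798.4, 975.6 and 966.1. The part of these cell types in the matrix gene results was not tested.

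**Figure D4:**
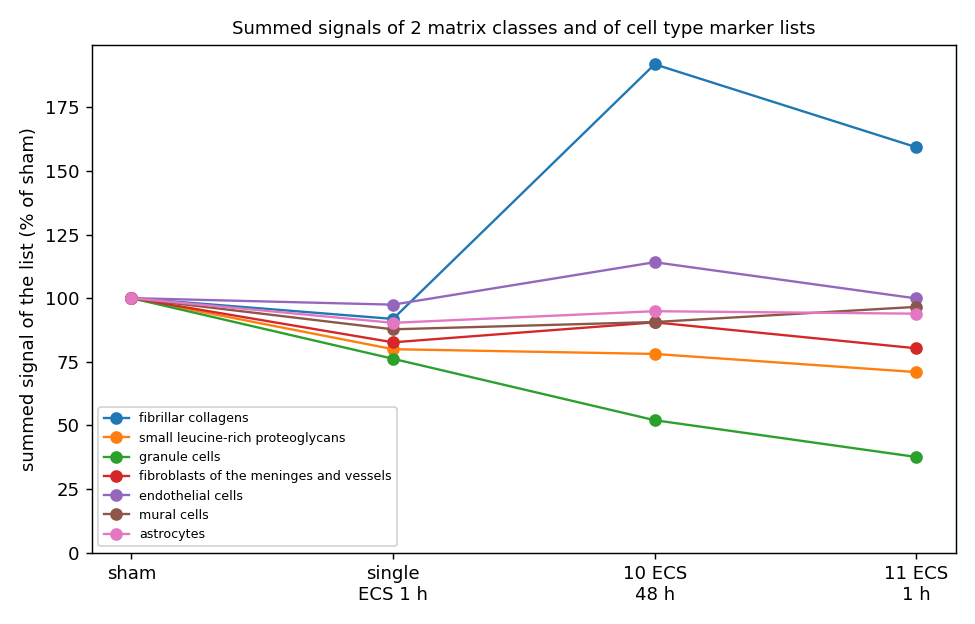
Summed MAS5 signal of 2 matrix gene classes and 5 cell type marker lists as a percentage of the sham array, for the sham, single ECS, 10 ECS and 11 ECS arrays, with lines that join the values of a list. The fibrillar collagens stand at 192% of sham after 10 ECS, and the granule cell list stands at 52% of it.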

How the data were processed

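RNA of the DG was measured on Affymetrix Mouse Genome 430A 2.0 arrays, 1 array for each of 4 groups. The authors labelled 100 ng of RNA by 3′ IVT amplification and deposited 1 MAS5 intensity value per probe set and array, on a linear scale. How the arrays were scaled to each other is not stated in the labels or the study's methods. The trimmed means were 239, 214, 217 and 207 in sham, single ECS, 10 ECS and 11 ECS, so the arrays may not share a scale. Ratios, folds and counts were nevertheless taken without rescaling, and only class and list medians were set against the median of all genes.

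Control probe sets (64) were left out. Symbols came from the array annotation, which gave a single symbol for 20380 probe sets. Log2 ratios were taken on the deposited values, floored at 12, with python 3.11.15, numpy 2.4.6 and pandas 2.3.3, and the steps were tested on simulated data. The number of arrays limits the precision, and no test was made. The members, classes and lists were chosen with earlier results of these data known. Genes were named by a rule. It took the members of the proteoglycan, lectican and glycoprotein classes, other members 2-fold apart with at least 48 units on the brighter array, and the 2 with the highest mean in each class. It also took the 3 highest and 3 lowest ratios per comparison, members whose probe sets differed by 2-fold, and up to 3 genes of each list with the ratios farthest from 0. Not every gene under the rule is printed. Col15a1, Col20a1 and the proteases and inhibitors that it took are among those left out. Alternatives were a floor of 50, no floor, a mean of at least 50, median scaling, quantile normalization and the median over probe sets. Counts in both repeated comparisons were added after seeing the data. No genome was used, and gene order came from the GRCm38.p6 gene table.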

Additional observations from a re-analysis of the deposited data

How the results depend on the processing

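No matrix gene past 2-fold changed direction under any of the 6 alternatives, while class medians close to that of all genes could change sign. Ogn and Col6a1 were past 2-fold in both repeated comparisons under each of them. Col1a2 was not with the median over probe sets, and Col3a1 was not in 11 ECS against a single ECS with a floor of 50. With the median over probe sets, 2 matrix genes were at least 2-fold higher in 10 ECS against sham and 3 in 11 ECS against a single ECS, 1 was higher and 1 lower in a single ECS against sham, and 0 were lower in 11 ECS against 10 ECS. With no floor, 9 were higher and 5 lower in 10 ECS against sham, 1 higher and 5 lower in 11 ECS against 10 ECS, 6 higher and 3 lower in a single ECS against sham, 7 lower in 11 ECS against a single ECS and 3 lower in both repeated comparisons, and the fibrillar median in 11 ECS against a single ECS was 0.98. With a floor of 50, 2 were higher in 11 ECS against a single ECS and 0 lower in 11 ECS against 10 ECS. The fibrillar median was then 0.58 in 10 ECS against sham, and that of other collagens 0.35 in 11 ECS against a single ECS and 0.17 in a single ECS against sham. With a mean signal of at least 50, 3 were higher in 11 ECS against a single ECS and 0 lower in 11 ECS against 10 ECS, and the fibrillar medians were 1.50 and 1.22 in the repeated comparisons. Median scaling and quantile normalization each gave 1 gene higher in a single ECS against sham, Col22a1. The cause of these shifts was not tested, beyond the fact that a higher floor or minimum leaves fewer genes. No paired analysis was possible because each group had 1 array, and for the same reason no array could be left out. Signals near the floor limit most fibrillar collagens, and the values of Col1a1 and Col18a1 stay under 48 units.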
